A study of Mus musculus with 24 samples.

Results

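Kidneys of adult mice labelled Haplotype-I (Hap-I) were compared with kidneys of adult mice labelled Haplotype-II (Hap-II), both on western diet. The comparison was chosen by its group labels and holds 8 of the 24 samples of the series, 4 per group. The series concerns hypertension in mice with an overexpressed human receptor for angiotensin (type 1), and the haplotype names tell its carriers apart. All 8 samples are labelled as kidney of strain C57/BL6, and the design text gives 4 animals per group. Another 8 kidney libraries entered the fit for the estimate of spread and as points of reference: 4 aged Hap-I mice on western diet and 4 C57 adults, whose labels name neither a haplotype nor a diet. No source used here gives the sex or exact age of the animals, the promoter behind the human receptor, the number of founders per line, or the composition and duration of the diet. The table lists mouse gene identifiers, and the human receptor transcript is not analysed here.

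The angiotensin receptor type 1 is the main receptor through which angiotensin II raises blood pressure. Renin, released by juxtaglomerular cells of the kidney, cuts angiotensinogen, and angiotensin-converting enzyme turns the product into angiotensin II. In the kidney the receptor constricts arterioles and promotes sodium reabsorption along the tubule, and signalling through it is linked to inflammation and scarring.

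Levels are given as rescaled TPM, that is, the deposited transcript abundances (TPM) divided by a factor per library that removes differences in composition among the 16 kidney libraries. Read depth is unknown, since TPM do not preserve it. Genes with a value above 0 numbered 17442 ± 1039 in Hap-I adults (SD, n = 4) and 16722 ± 626 in Hap-II adults (two-sided exact permutation p = 0.257; the smallest p that 4 against 4 libraries allow is 0.0286). The share of TPM from mitochondrially encoded genes was 30.4 ± 4.03 percent in Hap-I and 24.4 ± 3.06 percent in Hap-II adults (SD, n = 4, exact permutation p = 0.0857). This share was 21.35 to 35.73 percent in aged Hap-I mice and lower, at 12.38 to 16.94 percent, in C57 adults. Correlations of log2 levels were 0.941 to 0.987 within Hap-I, 0.931 to 0.968 within Hap-II and 0.917 to 0.976 between them. Summed proximal tubule markers reached 5553 to 7316 TPM in Hap-I and 5021 to 7895 in Hap-II adults, while 8 of 10 neuron and glia markers and 7 of 8 adrenal cortex markers stayed under 1 TPM in every one.

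Few transcripts separated Hap-I adults from Hap-II adults, and 6 of the 9 that did have a close copy at another locus. Of 12923 genes tested, 9 passed an adjusted p of 0.05 (0.0696 percent). In Hap-I adults 4 were higher (0.031 percent): Gm28438, Tyrobp, Sap18 and Gspt1. The 5 lower in Hap-I (0.0387 percent) were Gm4737, Gm8203, Gm10052, Tusc3 and Pcna-ps2. The median difference over all genes was 0.002 on the log2(TPM + 1) scale, on which all log2 differences here are given and which understates changes of weakly expressed genes. At an unadjusted p of 0.05, 302 genes were higher (2.34 percent) and 267 lower (2.07 percent). The 4 and 4 libraries did not overlap for 183 genes higher in Hap-I (1.42 percent) and 207 lower (1.6 percent). The count of 9 fell to 4 without Hap-II library 2 and to 5 without Hap-II library 4. Part of each fall came from the filter on low values, TPM of 1 or more in at least 4 libraries. Gm4737 and Pcna-ps2 met it only through Hap-II and were not tested when any Hap-II library was left out. The count was 15 with array weights, which weight libraries by their estimated quality, and 1 when near-identical copies were added up before testing. Where the copy is the more abundant, such a sum dilutes a change of the called gene alone, most of all for Pcna-ps2. On summing, the 6 genes with a copy came to log2 differences of -0.30 to 0.34, while Gspt1 and Tyrobp, which have none, kept 0.98 and 3.61 and missed the threshold by their adjusted p alone (0.0778 for both).

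**Figure D1:**
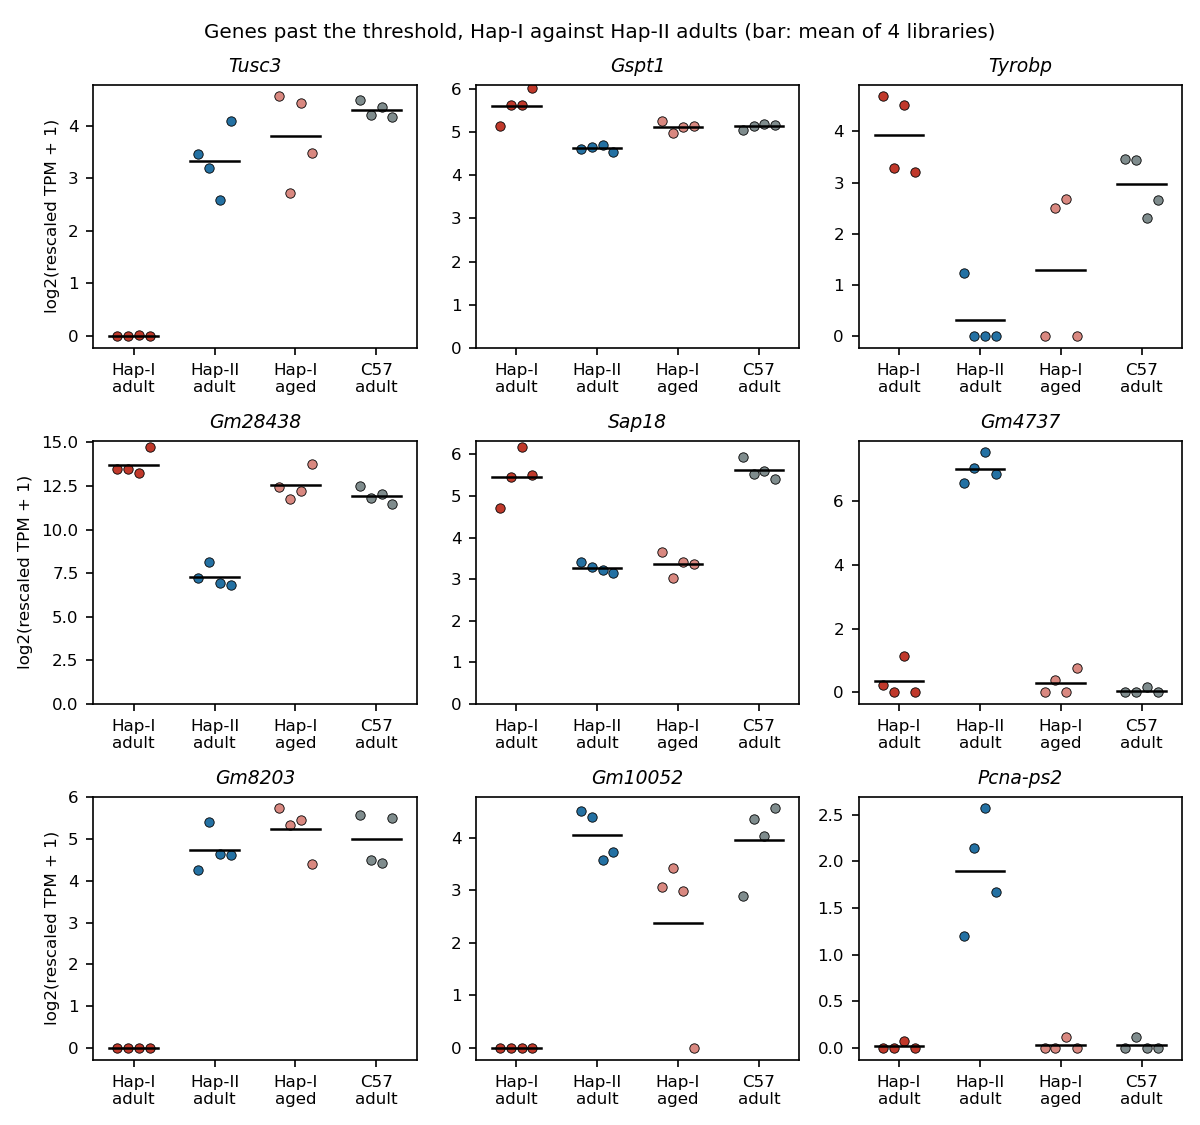
Level of each of the 9 genes past the threshold as log2(rescaled TPM + 1) in each library of the 4 kidney groups. Points are libraries and bars are means of 4; Tusc3 and Gm8203 were near 0 in Hap-I adults alone, and Gm4737 and Pcna-ps2 were near 0 in every group but Hap-II.

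Called genes were compared with their copies by sequence, because a transcript that shares long exact stretches with another can receive reads of either. Transcripts are from GENCODE M21 on GRCm38, and positions are counted from the first coding base of each transcript, or from the first base where no coding sequence is annotated. Gm4737 (chr16:46152985-46155077, minus strand, protein coding) and Ahcy (chr2:155059310-155074497, minus strand) have coding sequences of 1296 bases each that differ at 4. Bases 385 to 474 hold 2 of these differences, in capitals, and are shown because within the coding sequence only such bases tell a Gm4737 read from an Ahcy read; of the 2799 words of 31 bases in Ahcy transcripts, 1923 also occur in Gm4737.
Gm4737: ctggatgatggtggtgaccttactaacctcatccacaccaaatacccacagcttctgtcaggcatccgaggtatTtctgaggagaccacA
Ahcy: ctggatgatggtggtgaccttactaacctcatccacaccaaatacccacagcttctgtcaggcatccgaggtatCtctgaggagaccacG

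Gm28438 (chr1:24612775-24613119, minus strand) is an unprocessed pseudogene, a piece of mitochondrial DNA in the nuclear genome, and mt-Nd3 (mitochondrial genome, 9459 to 9806, plus strand) is its source. The 345 bases aligned differ at 1 position, which lies in the first codon. Bases 1 to 90 are shown with that position in capitals, and beyond it the stretch of 342 bases that follows is identical.
Gm28438: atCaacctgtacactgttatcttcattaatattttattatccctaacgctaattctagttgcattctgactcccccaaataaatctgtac
mt-Nd3: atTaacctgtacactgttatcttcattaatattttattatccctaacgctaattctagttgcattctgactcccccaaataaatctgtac

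The coding sequences of Sap18 (chr14:57798180-57806638, plus strand) and Sap18b (chr8:95825346-95826134, plus strand) are the same over all 516 bases. All 384 coding bases of H2afz (chr3:137864487-137866922, plus strand) occur unchanged in the processed pseudogene Gm8203 (chr6:116173737-116174123, plus strand), so no capital could mark a difference. The first 90 bases, common to both, show what a read from this stretch would hold.
Gm8203: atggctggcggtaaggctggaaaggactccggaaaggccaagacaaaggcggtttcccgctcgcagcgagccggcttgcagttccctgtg
H2afz: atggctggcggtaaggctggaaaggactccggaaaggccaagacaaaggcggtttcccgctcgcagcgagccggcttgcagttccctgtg

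Gm10052 (chr9:123689233-123690192, minus strand) is likewise identical to Hnrnpa1 over 960 bases, and Pcna-ps2 (chr19:9283380-9284160, plus strand) differs from Pcna at 6 of 781. Of the 31-base words in H2afz transcripts, 357 of 1909 occur in Gm8203, and of those in Hnrnpa1 transcripts, 930 of 3200 occur in Gm10052. No copy sharing at least 50 percent of its 31-base words was found for Tusc3, Gspt1 or Tyrobp.

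Ahcy encodes adenosylhomocysteinase, which clears the by-product of methylation reactions. Gm4737 was listed at 94.0, 133, 186 and 115 TPM in Hap-II libraries 1 to 4. In Hap-I adults it was 0.163, 0, 1.22 and 0, and no library of the aged or C57 groups exceeded 0.672. The groups did not overlap, and the difference was -6.67 ± 0.26 log2 (SE, limma adjusted p = 4.97e-10). The gene passed the filter on low values, TPM of 1 or more in at least 4 of the 16 libraries, only through the Hap-II libraries, so a gene kept in this way had to differ; with no such filter the adjusted p was 2.25e-08. Ahcy ran the other way, at 134, 166, 184 and 212 TPM in Hap-I and 55.0, 55.4, 4.95 and 76.3 in Hap-II, where the lowest Ahcy value stood beside the highest Gm4737 value. Its log2 difference of 2.31 did not pass the threshold (limma adjusted p = 0.429). Ahcy did pass without Hap-II library 3, and when the library with the fewest genes of each group was left out. The sum of Gm4737, Ahcy and the pseudogene Gm9826 was 174 ± 32.8 in Hap-I and 180 ± 20.7 in Hap-II (SD, n = 4), a log2 difference of -0.06 (limma adjusted p = 0.994). Most TPM of the family thus stood under Gm4737 in each Hap-II library and under Ahcy in each Hap-I library, and the sum did not pass the test.

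mt-Nd3 encodes a subunit of respiratory complex I. Its nuclear copy Gm28438 was listed at 11205, 11532, 9595 and 26853 TPM in Hap-I libraries 1 to 4, against 151, 279, 123 and 112 in Hap-II, a rise of 6.44 ± 0.44 log2 (SE, limma adjusted p = 7.52e-07). mt-Nd3 itself was 3346, 3811, 4274 and 8380 in Hap-I and 8622, 13747, 24998 and 19028 in Hap-II, with no overlap (log2 difference -1.74, limma adjusted p = 0.828). It did pass the threshold on deposited TPM and with quantile normalization. Of the TPM of this pair, the nuclear copy held 69.2 to 77.0 percent in Hap-I adults, 22.0 to 60.0 percent in aged Hap-I mice, 71.3 to 79.6 percent in C57 adults and 0.488 to 1.99 percent in Hap-II adults. Hap-II adults therefore stood apart from the other 3 groups, including the C57 group. The sum of the pair was 19751 ± 10342 in Hap-I and 16762 ± 6993 in Hap-II (SD, n = 4; log2 difference 0.22, limma adjusted p = 0.988).

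The neighbouring pair mt-Co3 and Gm28437 was divided in the opposite sense. mt-Co3, a subunit of cytochrome c oxidase, was at 65721, 64764, 42425 and 147803 TPM in Hap-I and 11128, 15141, 26640 and 13573 in Hap-II, a log2 difference of 2.19 that missed the threshold (limma adjusted p = 0.431). Like mt-Nd3, it passed on deposited TPM and with quantile normalization. The nuclear copy held 6.46 to 51.7 percent of that pair in Hap-I and 63.4 to 78.8 percent in Hap-II. For mt-Atp6 with Gm10925 the share was 12 to 35.7 against 12 to 18.5 percent, for mt-Co1 with Gm29216 36.2 to 60.5 against 37.5 to 45.4, and for mt-Co2 with Gm28661 41.0 to 84.4 against 50.7 to 74.3. These 3 pairs overlapped between the groups. The copies of mt-Nd4 and mt-Nd4l, Gm28439 and Gm10222, were listed at 0 in all 16 libraries.

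Sap18, a subunit of the Sin3 histone deacetylase complex, was 5.32-fold higher by mean in Hap-I. It stood at 25.3, 43.2, 71.4 and 44.4 TPM there and at 9.65, 8.80, 8.26 and 7.89 in Hap-II, a rise of 2.20 ± 0.24 log2 (SE, limma adjusted p = 2.52e-04). The aged Hap-I libraries lay at 7.19 to 11.6, overlapping the Hap-II values, and the C57 libraries at 41.3 to 60.0, among the Hap-I values. Sap18b took 82.1, 60.2, 65.6 and 115 TPM in Hap-I and 102, 128, 145 and 128 in Hap-II, and the sum of both was 127 ± 26.3 against 135 ± 17.1 (SD, n = 4; log2 difference -0.10, limma adjusted p = 0.988).

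Gm8203 was listed at 0 in all 4 Hap-I adults and at 18, 41.7, 24.0 and 23.5 TPM in Hap-II. It reached 20.1 to 52.2 in aged Hap-I mice and 20.7 to 46.4 in C57 adults, so the Hap-I adults were the group apart (log2 difference -4.73 ± 0.32, SE, limma adjusted p = 7.52e-07). H2afz, which encodes histone variant H2A.Z, was 178 ± 13.3 in Hap-I and 123 ± 44.5 in Hap-II (SD, n = 4), and the sum of the pair differed by 0.30 log2 (limma adjusted p = 0.988). Gm8203 also lies within Tmcc1, on the other strand.

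Gm10052 was listed at 0 in all 4 Hap-I adults and at 21.7, 20.1, 10.9 and 12.2 TPM in Hap-II (log2 difference -4.05 ± 0.57, SE, limma adjusted p = 5.82e-03). Unlike for Gm8203, a value of 0 also occurred among the aged Hap-I and C57 libraries, so the Hap-I adults were not a group apart. The call was lost without Hap-II library 2 (limma adjusted p = 0.0507). Hnrnpa1, which encodes an abundant RNA-binding protein of pre-mRNA processing, was 45.9 ± 4.54 and 41.3 ± 7.19 (SD, n = 4), and the sum of the family differed by -0.30 log2 (limma adjusted p = 0.988). Pcna-ps2 reached 1.29, 3.43, 4.92 and 2.18 TPM in Hap-II and at most 0.0573 in Hap-I adults, a fall of 1.88 ± 0.22 log2 (SE, limma adjusted p = 5.01e-04). It too passed the low filter only through Hap-II, and with no filter the adjusted p was 9.35e-04. Pcna, the sliding clamp of DNA replication, was 38.5 ± 7.58 in Hap-I and 27.0 ± 2.05 in Hap-II (SD, n = 4). The sum of the pair was higher in Hap-I by 0.34 log2, without passing the threshold (limma adjusted p = 0.988). None of the 6 sums passed, at limma adjusted p of 0.988 or more. For Pcna-ps2, at most 4.92 TPM beside Pcna at 27.0 in Hap-II, the sum could hardly show a change of the called gene. Gm8203 and Gm10052 were also the smaller members, so their sums dilute a change of the called gene alone.

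**Figure D2:**
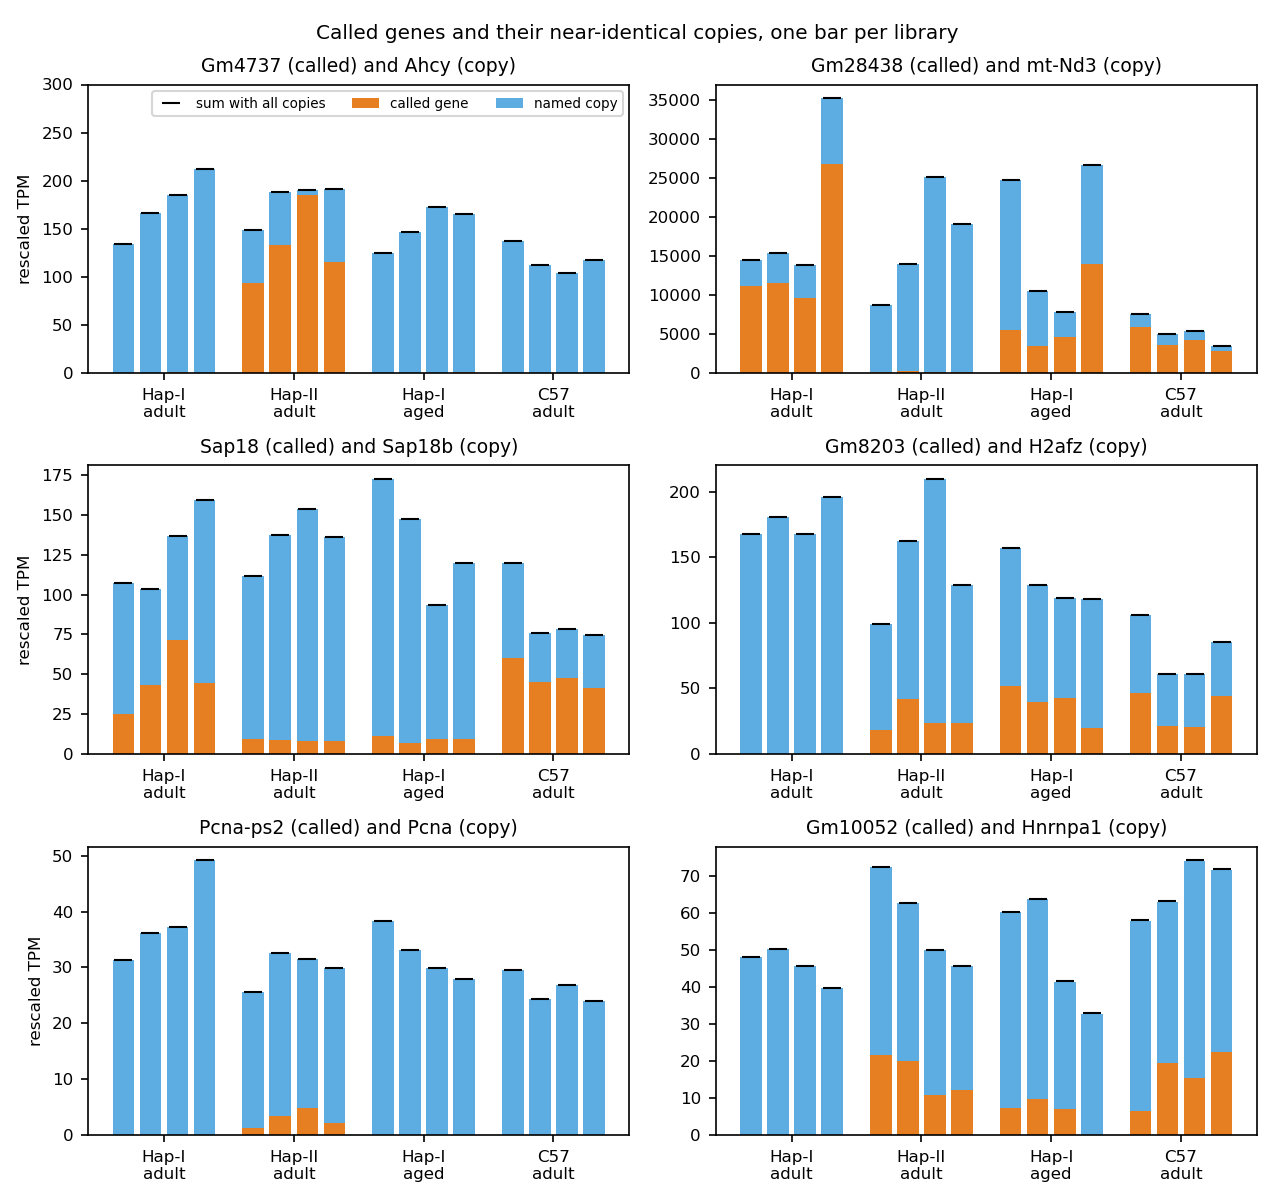
Rescaled TPM of 6 called genes (orange) stacked with their named copy (blue), 1 bar per library in the 4 kidney groups, with a tick at the sum over all copies. The orange share differs between Hap-I and Hap-II adults while the ticks of these adults overlap in every panel.

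The 3 called genes without such a copy were Tusc3, Gspt1 and Tyrobp. Tusc3 (chr8:39005845-39165114, plus strand) encodes a subunit of the oligosaccharyltransferase complex, which attaches sugars to new proteins in the endoplasmic reticulum. It was near 0 in all 4 Hap-I adults, with a highest value of 0.0110 TPM, and at 10.1, 8.16, 4.99 and 15.87 in Hap-II. Aged Hap-I mice had 5.61 to 22.5 TPM and C57 adults 16.9 to 21.5, so the adult Hap-I libraries lay below all the other 12. The fall was 3.33 ± 0.35 log2 (SE, limma adjusted p = 1.97e-04). It was called when copies were summed and under 21 of 22 alternative settings, the exception being a fit over all 24 libraries (limma adjusted p = 0.43).

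Gspt1 (chr16:11219292-11254325, minus strand) encodes the translation termination factor eRF3a. Its levels were 34.4, 48.5, 48.2 and 64.3 TPM in Hap-I and 23.3, 24.2, 25.2 and 22.3 in Hap-II, a mean of 48.9 ± 12.2 against 23.7 ± 1.24 (SD, n = 4). Every Hap-II library also lay below the aged Hap-I (30.8 to 37.1) and C57 (32.0 to 35.5) libraries. The rise in Hap-I was 0.98 log2 (95 percent interval 0.64 to 1.32, limma adjusted p = 0.0201). The call was lost under 11 of 22 settings, with adjusted p of 0.817 on deposited TPM and 0.319 in a fit of the 8 libraries alone. It was lost when Hap-I library 2 or 3, or Hap-II library 1, 2 or 4, was left out (adjusted p 0.0794 to 0.165).

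Tyrobp (chr7:30413760-30417585, plus strand) encodes DAP12, a signalling adaptor of macrophages and natural killer cells. It was at 24.7, 8.80, 21.9 and 8.21 TPM in Hap-I and at 1.35, 0, 0.0002 and 0 in Hap-II, without overlap (log2 rise 3.61 ± 0.60, SE, limma adjusted p = 0.026). In aged Hap-I mice it ranged from 0 to 5.41 and in C57 adults from 3.98 to 9.93. The call was lost under 12 of 22 settings, with adjusted p from 0.00115 to 0.212 over all of them. It was lost when Hap-I library 1 or 3, or Hap-II library 2, 3 or 4, was left out (adjusted p 0.113 to 0.174).

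Other macrophage markers did not share this pattern. Of 17 tested, Tyrobp alone was called, 3 had a positive and 14 a negative difference, and their median was -0.20 against 0.002 for all genes (-0.38 without Hap-I library 1, -0.10 without Hap-I library 4). Fcer1g, which encodes a related signalling adaptor, was 15.2 ± 4.82 TPM in Hap-I and 17.0 ± 2.79 in Hap-II (SD, n = 4). Csf1r, the receptor of macrophage colony-stimulating factor, was 8.15 ± 2.53 and 10.7 ± 4.23. The summed level of the list ranged from 151 to 315 TPM in Hap-I and from 204 to 248 in Hap-II. In bulk tissue, fewer cells of a type and less RNA per cell cannot be told apart.

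Some transcripts placed the 4 libraries of an adult group outside all other 12 kidney libraries. For the Hap-I adults, these 12 include the aged mice of the same haplotype. The 4 Hap-II libraries were above the rest for 10 genes (0.0774 percent) and below the rest for 21 (0.163 percent), and the 4 Hap-I adults were above for 32 (0.248 percent) and below for 12 (0.0929 percent). Some genes are named here after their values were seen. Cir1 was at 15.4 to 16.4 TPM in Hap-II and at most 13.6 elsewhere, and Eif3j1, a translation initiation factor subunit, was at 3.27 to 4.32 in Hap-II and at least 4.53 elsewhere. Srsf7, a splicing factor, was at 13.6 to 23.4 TPM in Hap-I adults and at most 11.3 elsewhere. None of these 3 passed the threshold (limma adjusted p 0.263, 0.202 and 0.165). Cir1 and Eif3j1 did pass in the fit over all 24 libraries.

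The renin-angiotensin system showed no called difference. Of its 16 genes, 13 were tested, 4 with a positive and 9 with a negative difference, none at an unadjusted p under 0.05, and the median was -0.15. Relative to all genes it came to 0.00 when Hap-I library 4 was dropped, to -0.01 when the first Hap-II library was, and to -0.07 with a covariate for Y-linked transcripts. Ren1 (renin) was at 29.4, 27.6, 18.9 and 35.0 TPM in Hap-I and 28.7, 20.4, 18.1 and 28.6 in Hap-II, a log2 difference of 0.20 with a 95 percent interval of -0.49 to 0.89. Agt (angiotensinogen) was 9.80 ± 2.34 and 11.9 ± 4.88 (SD, n = 4). Both groups overlapped widely for these 2 genes of the hormone's origin.

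Ace (angiotensin-converting enzyme) was at 25.1, 19.9, 20.1 and 18.1 TPM in Hap-I and 51.7, 19.1, 19.9 and 32.0 in Hap-II, where library 1 was the high one (log2 difference -0.43, interval -1.30 to 0.43). The peptidases Anpep, Mme, Enpep, Lnpep and Prcp lay between -0.52 and 0.09. Among receptors, the mouse type 1 receptor Agtr1a was at 16.2, 13.3, 14.8 and 16.3 TPM in Hap-I and 16.8, 10.4, 14.1 and 14.4 in Hap-II (log2 difference 0.13, interval -0.40 to 0.65). Agtr1b, Agtr2 and Mas1 did not pass the low filter and stayed under 1 TPM in all 8 libraries. Atp6ap2, the (pro)renin receptor, differed by 0.21, the mineralocorticoid receptor Nr3c2 by -0.17 and Hsd11b2, which protects that receptor from glucocorticoids, by -0.18. These intervals do not show the levels to be alike.

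Nephron segment markers had mostly negative differences without a called gene. Medians were -0.21 for 20 proximal tubule markers, -0.45 for 10 of the thick ascending limb, -0.51 for 8 of the distal convoluted tubule, -0.17 for 10 of principal cells and -0.31 for 11 of intercalated cells. Umod, the main urinary protein made by the thick ascending limb, was at 525, 700, 308 and 38 TPM in Hap-I and 1141, 638, 391 and 418 in Hap-II, and Hap-I library 4 was the low one. Without that library the thick ascending limb median, relative to all genes, was -0.03, and without Hap-II library 1 the proximal tubule median was 0.02. The principal cell median became 0.06 on leaving out Hap-I library 4, 0.01 on leaving out the second Hap-II library and -0.38 on leaving out the third. The intercalated cell median was -0.16 without Hap-I library 4 and -0.65 without Hap-I library 1. Among 22 genes of distal salt transport the median was -0.31 (-0.12 without Hap-I library 4), with 19 negative and 1 at an unadjusted p under 0.05. That gene was Nedd4l, the ubiquitin ligase that removes the epithelial sodium channel, at 2.49, 2.20, 2.26 and 0.908 TPM in Hap-I and 6.14, 3.23, 2.69 and 3.83 in Hap-II (limma adjusted p = 0.987). Podocyte and endothelial medians were 0.09 and 0.01, and both changed sign without Hap-I library 1 (-0.02 and -0.11).

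All 10 smooth muscle and pericyte markers tested had positive differences, 4 of them at an unadjusted p under 0.05 and none called, and the median was 0.45 (0.39 to 0.53 relative to all genes with any 1 library left out). Their summed level was 82.0 to 147 TPM in Hap-I and 51.5 to 84.7 in Hap-II. Des (desmin) was at 4.99, 3.22, 4.20 and 4.19 TPM in Hap-I and 1.78, 2.66, 2.77 and 2.48 in Hap-II, without overlap (log2 difference 0.59, limma adjusted p = 0.987). Acta2 (smooth muscle actin) was 12.5 ± 4.05 against 6.83 ± 1.18, Myl9 46.6 ± 11.1 against 29.3 ± 7.10 and Tagln 32.0 ± 13.8 against 16 ± 4.75 (SD, n = 4), each with 1 or more libraries overlapping. The aged Hap-I and C57 libraries lay at 4.18 to 5.83 and 3.77 to 8.06 TPM for Des, above every Hap-II library. Matrix genes had a median of 0.14, with 23 of 28 positive, 1 at an unadjusted p under 0.05 (Col6a3) and none called, and the median was -0.03 without Hap-I library 1.

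**Figure D3:**
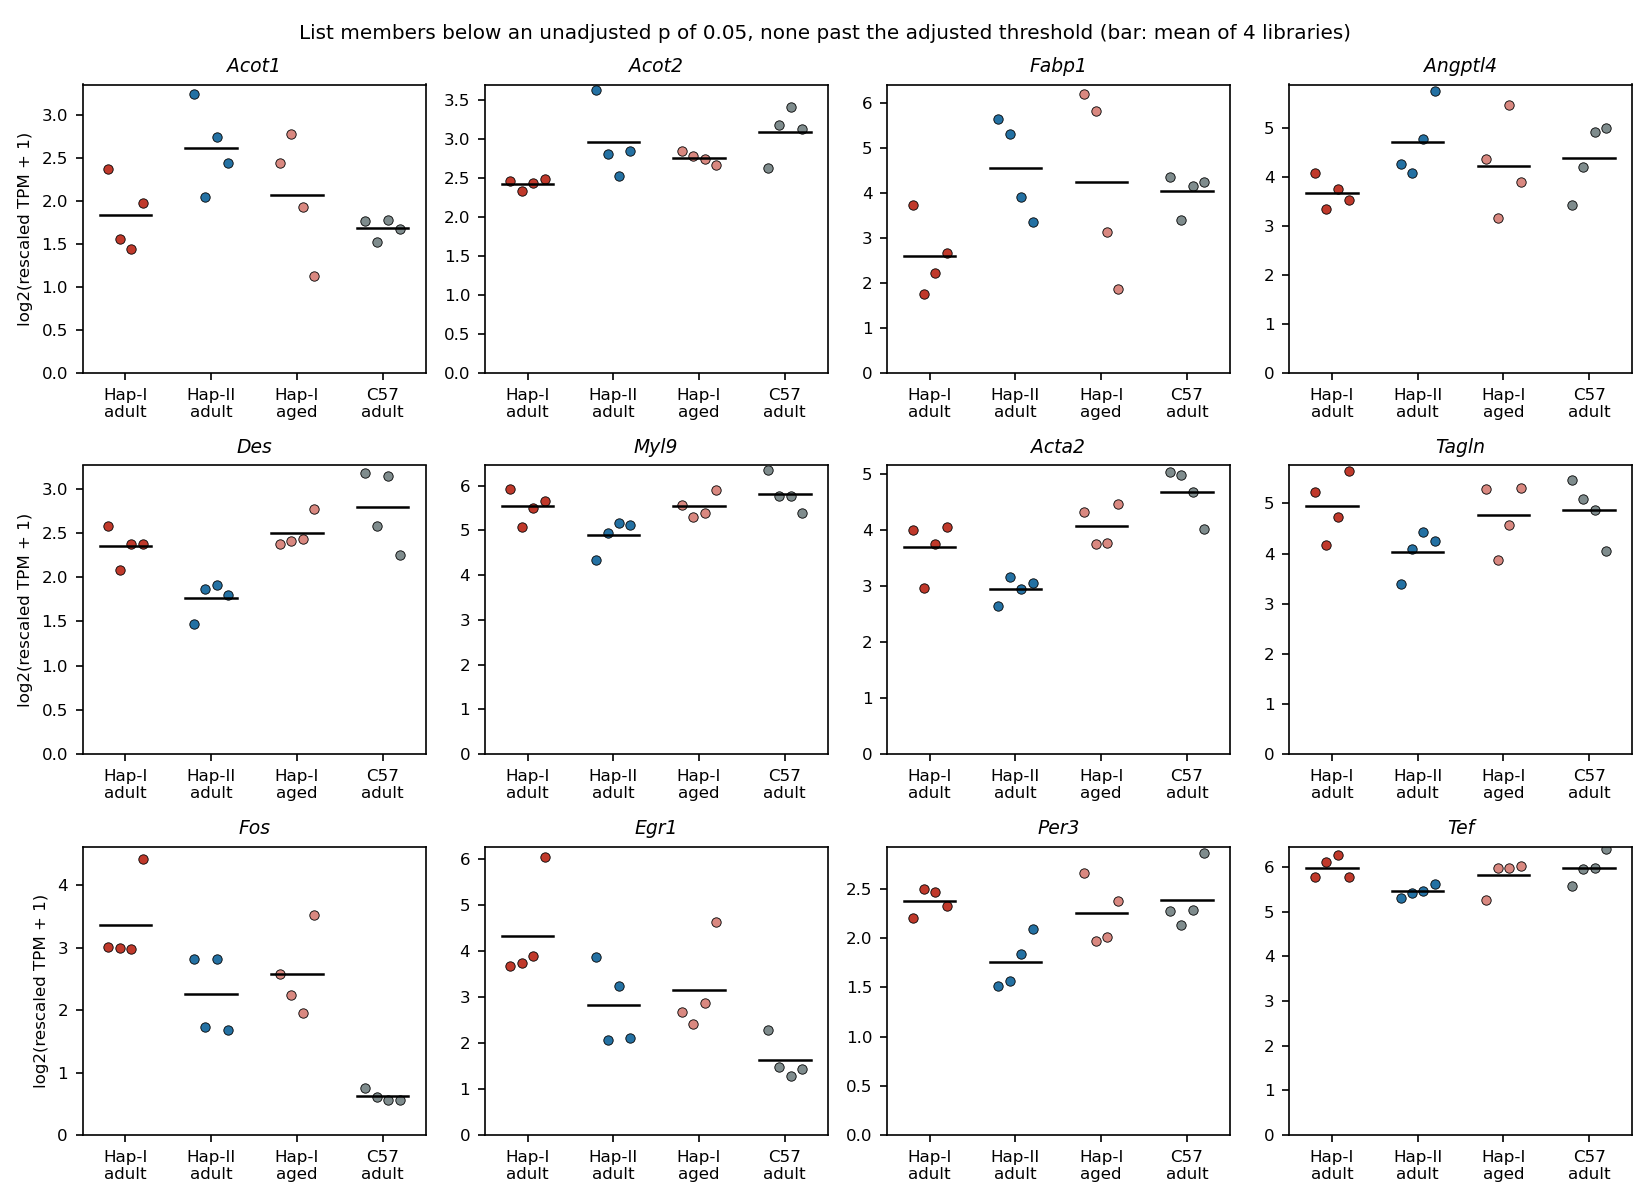
Level as log2(rescaled TPM + 1) of 12 list members with an unadjusted p under 0.05, in each library of the 4 kidney groups (points) with the mean of 4 (bars). Acot2, Des, Fos, Per3 and Tef do not overlap between Hap-I and Hap-II adults, and in Fos and Egr1 Hap-I library 4 lies above the other Hap-I libraries.

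Genes of fatty acid oxidation and its regulator Ppara included several with lower means in Hap-I. Of 35 tested, 22 were negative and 13 positive, 5 were at an unadjusted p under 0.05, all of them negative, and none was called; the median was -0.20. Fabp1, a fatty acid carrier, was 5.92 ± 4.44 against 27.7 ± 19.2, and Angptl4, an inhibitor of lipoprotein lipase, 12 ± 2.91 against 28.4 ± 16.9 (SD, n = 4). The acyl-CoA thioesterase Acot2 was at 4.49, 4.03, 4.42 and 4.62 TPM in Hap-I and 11.4, 6.03, 4.78 and 6.19 in Hap-II, without overlap. Its relative Acot1 was 2.70 ± 1.13 against 5.44 ± 2.29 (SD, n = 4) and overlapped. Differences within the list ran from -2.21 to 0.60. Medians of the cholesterol and lipogenesis lists were 0.02 and -0.07 (-0.05 to 0.10 and -0.15 to 0.02 with 1 library left out), with none called.

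Immediate-early genes, which respond within minutes to stimulation or handling, were positive for 17 of 19, 5 of them at an unadjusted p under 0.05 and none called. Their median of 0.48 became 0.08, relative to all genes, without Hap-I library 4. Fos was at 7.09, 7.0, 6.88 and 20.5 TPM in Hap-I and 6.03, 2.32, 6.07 and 2.22 in Hap-II. Egr1 was at 11.8, 12.3, 13.8 and 64.1 against 13.5, 3.16, 8.45 and 3.31. Hap-I library 4, with 15975 genes above 0, had the highest level of both. Clock genes had a median of 0.11, with 14 of 18 positive and 3 at an unadjusted p under 0.05. Per3 was at 3.62, 4.65, 4.55 and 4.03 in Hap-I and 1.86, 1.96, 2.57 and 3.28 in Hap-II, and Tef, a clock output factor, at 53.8, 68.8, 76.4 and 54.0 against 38.9, 41.8, 43.3 and 48.3. Neither overlapped between the groups or passed the threshold (limma adjusted p 0.828 and 0.987). The hour of tissue collection is not given.

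Among the remaining genes with the largest differences and no overlap, Itgav and Itgb6 encode partner chains of an integrin that activates TGF-beta. Itgav was at 51.4, 39.5, 42.8 and 179 TPM in Hap-I and 17.9, 17.2, 26.4 and 20.1 in Hap-II, a log2 difference of 1.60. Itgb6 went the other way, at 22.1, 19.3, 9.82 and 12.2 against 28.4, 27.9, 32.2 and 29.9, a log2 difference of -0.93. Both had a limma adjusted p of 0.478. Ints8, of the Integrator complex, Coq10b, of coenzyme Q metabolism, Zfp958 and the matricellular factor Ccn1 had positive log2 differences of 1.00 to 1.30. Atp2b4, a plasma membrane calcium pump, was at 1.57, 1.28, 2.09 and 0.721 TPM in Hap-I and 3.03, 9.68, 4.30 and 18.3 in Hap-II, and the aged Hap-I libraries reached 69.5. Xpnpep1, Rasa1, Atp9a, Fcgr4 and Anp32e had negative differences of -1.24 to -0.74, and none of the genes in this paragraph passed the threshold.

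**Figure D4:**
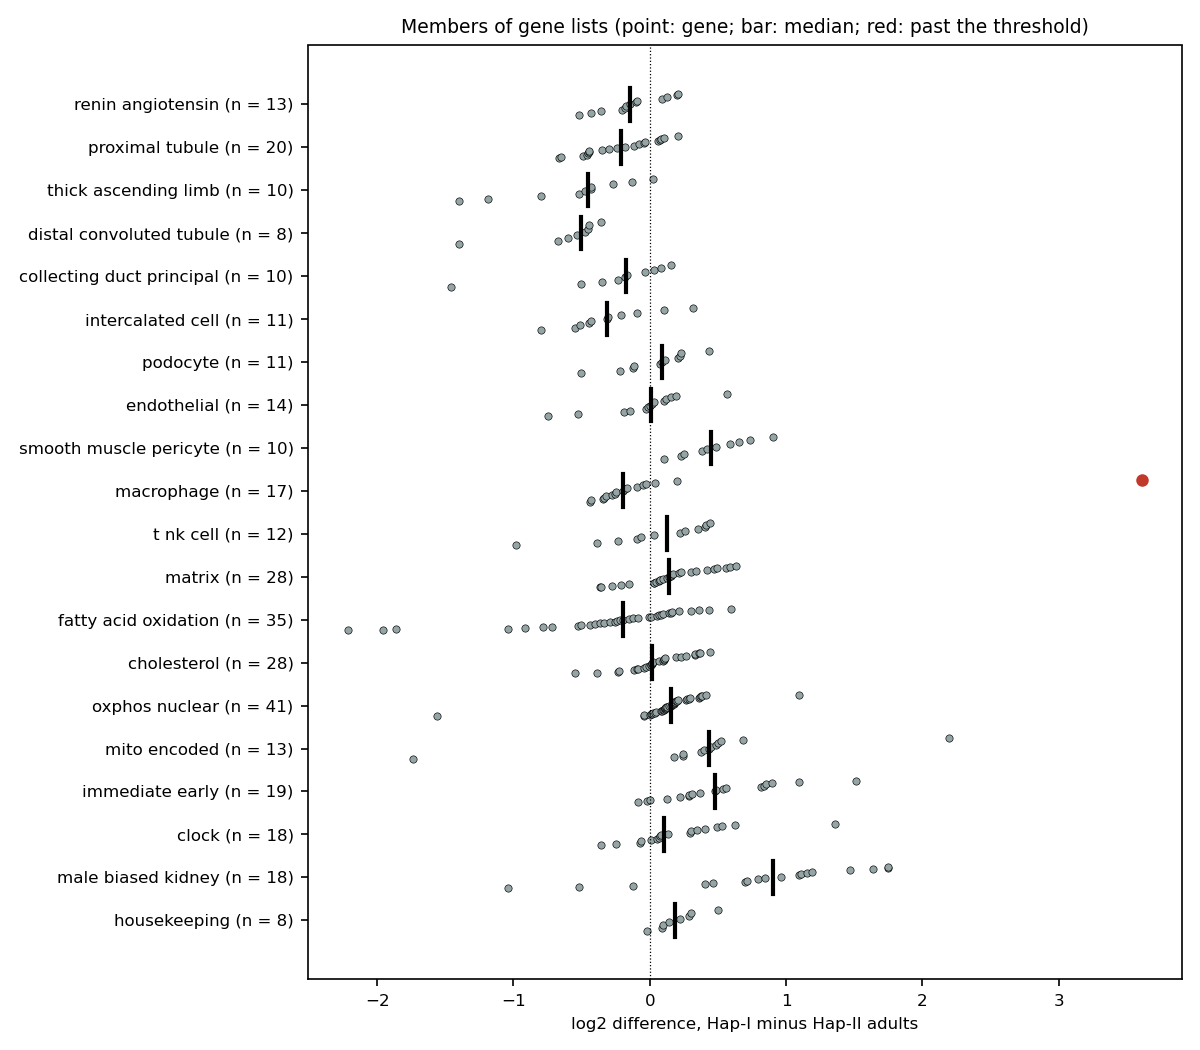
Log2 difference, Hap-I minus Hap-II adults, of the tested members of 20 gene lists (points), with the median of each list (bar) and the number tested. Tyrobp at 3.61 is the single member past the threshold, and all smooth muscle and pericyte genes lie above 0.

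Transcripts of the mitochondrial genome had positive differences for 12 of 13 genes, with a median of 0.44, and mt-Nd3 was the exception. Relative to all genes it was 0.37 on deposited TPM, 0.31 with the Y-linked covariate and 0.23 to 0.61 with any 1 library left out. With quantile normalization it was 0.00. That method gives equal ranks equal values, so it removes a shift that the most abundant genes share. Changes of rank can still show, and mt-Co3 and mt-Nd3 were called under it, in opposite directions. Nuclear genes of oxidative phosphorylation were positive for 38 of 41, with a median of 0.16 that became 0.03 under the same normalization and -0.02 without Hap-I library 4. None of the 41 was called.

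The libraries also differed by Y-linked transcripts, and the labels name no sex. Eif2s3y was at 0, 24.6, 24.5 and 13.2 TPM in Hap-I libraries 1 to 4 and at 0, 0.333, 35.3 and 33.2 in Hap-II libraries 1 to 4. Y-linked transcripts were therefore abundant in 3 of the 4 Hap-I and in both Hap-II libraries 3 and 4. The sum of 4 Y-linked genes was 2.68, 0.557, 26.5 and 22.1 TPM in aged Hap-I libraries 1 to 4. In the C57 adults, used here as a point of reference, it was only 0.507 to 0.610. Cyp2j13, a cytochrome P450 known as male-biased in mouse kidney, was at 0.305, 90.2, 121 and 140 against 0.104, 0.349, 87.4 and 122, along the same split. The 18 male-biased genes had a median difference of 0.91 with none called, which was 1.91 without Hap-I library 1 and 0.07 with the Y-linked mean as a covariate. With that covariate 9 genes were called, the same 9 as without it. Female-biased genes had a median of -0.25, which was 0.12 with the covariate and between -0.92 and 0.06 with 1 library left out (the lowest value lacks Hap-I library 1, and the highest lacks the first Hap-II library). For the fatty acid oxidation list the covariate gave -0.11 in place of -0.20. For the smooth muscle and pericyte list it left the median at 0.45.

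**Figure D5:**
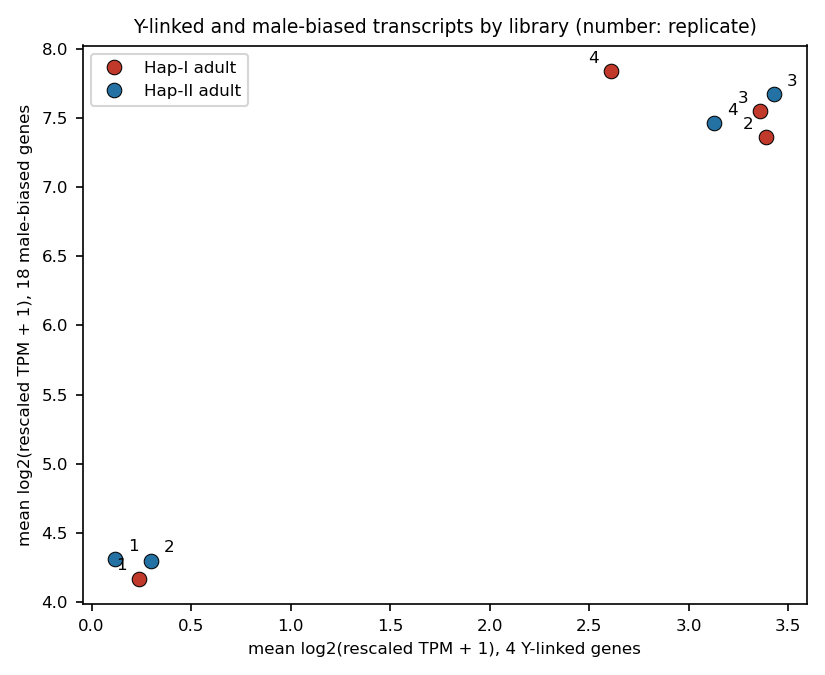
Mean log2(rescaled TPM + 1) of 18 male-biased genes against that of 4 Y-linked genes in the 8 libraries, numbered by replicate. Hap-I library 1 and Hap-II libraries 1 and 2 lie at the low end of both axes, the other 5 at the high end.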

How the data were processed

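Polyadenylated RNA of mouse kidney was sequenced from stranded libraries, per the labels' protocols. The authors deposited TPM per gene for 24 libraries in 1 table; kallisto, DESeq2 and GRCm38 are named without versions or roles in the submitters' processing notes. Of 30153 identifiers, 29811 matched GENCODE M21 (GRCm38). Each column bears the code that opens the title of its sample.

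The fit used 16 kidney libraries (4 groups of 4). Genes with TPM of 1 or more in at least 4 of them were kept. Deposited TPM were divided by median-of-ratios factors computed within the 16, and log2(TPM + 1) was fitted with limma 3.58.1 in R 4.3.3 (a mean per group, trended empirical Bayes, 12 residual degrees of freedom, which the 95 percent intervals also use), two-sided, with Benjamini-Hochberg adjustment over all 12923 genes and a threshold of 0.05. The 8 libraries of Hap-I mice without the diet label were left out because earlier results showed brain-like transcripts in them. The test was tried on simulated data. TPM keep no read depth, so no counting interval is given, and a value of 0 means that a gene is listed at 0.

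Copies were genes sharing at least 50 percent of the 31-base words of the smaller transcript set, and were aligned by coding sequence. The copies of other named genes were not searched beyond those of called genes, of genes with large differences and of mitochondrial genes. Genes named were all past the threshold, their copies, up to 10 per direction with the largest non-overlapping difference at a mean of at least 5 TPM (no predicted genes, pseudogenes or immunoglobulin segments), up to 3 per list with the smallest p, and the renin-angiotensin, mitochondrial and Y-linked lists. Fcer1g, Csf1r, Tagln, Angptl4, Acot1 and Cyp2j13 were further examples named after their values were seen. Some list members that this rule names are not reported here. The comparison, the 42 gene lists and the settings were chosen with earlier results of these data known. Alternatives covered scaling, pseudocount, filters, libraries fitted, weights, covariates, copies and each library left out.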

Additional observations from a re-analysis of the deposited data

Results flagged for a closer look

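Of 58 sets of 4 libraries examined, 8 held 1 library whose gap to the nearest other exceeded Dixon's 95 percent limit. Chance gives about 1 in 20 where values are normally distributed. The values flagged were rescaled TPM, which cannot fall below 0 and need not be so distributed, so 8 of 58 cannot be read as an excess. Among Hap-I adults, library 3 held the highest values of 3 genes near 0 in that group: Tusc3 at 0.0110 TPM, Gm4737 at 1.22 and Pcna-ps2 at 0.0573. Hap-I library 4 held Gm28438 at 26853, Itgav at 179 and Fos at 20.5. Among Hap-II adults, library 1 held Tyrobp at 1.35 and Xpnpep1 at 26.4. All 8 values stood on the high side of their group, and only the near-0 genes and Tyrobp lay on the side of the other haplotype.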

How the results depend on the processing

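Against 9 genes past the threshold, array weights gave 15 and summing near-identical copies gave 1, Tusc3, with 557 genes at an unadjusted p under 0.05; of the 8 lost, Gspt1 and Tyrobp have no copy and kept their log2 differences (0.98 and 3.61, adjusted p 0.0778). Leaving out 1 library gave 4 to 10, the lowest without Hap-II library 2. The other settings gave 7 to 11, except that leaving out the library with the fewest genes of each group, a setting chosen after seeing the data, gave 6. With the replicate block 7 genes were called, all among the 9, and Tyrobp and Gspt1 were lost (limma adjusted p 0.212 and 0.292). Deviations from group means correlated at 0.565, -0.036, 0.219 and 0.273 between same-numbered Hap-I and Hap-II adult libraries. Between differently numbered ones they correlated at -0.518 to 0.329. Whether the numbers pair the samples cannot be told from these values. On deposited TPM 3 were higher and 7 lower, against 4 and 5, with the median of all genes at -0.218.

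Gm28438 and Sap18 were called in 21 of 22 settings, Gm8203 in 20 (not with all 24 libraries, adjusted p 0.113) and Gm10052 in 18. Gm4737 was called in 16 of 17 and Pcna-ps2 in 14 of 16 (not with the 8 libraries alone, adjusted p 0.0847), since both fell under the low filter in some settings. Of 3241 recomputed values of uncalled named genes 66 changed sign, and of 877 list medians 82. Depth is unknown, so levels near 0 cannot be bounded.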
